A study of Mus musculus with 4 samples.

Results

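The genes described here are 10 genes of fat cell formation, and the data are the accessible chromatin at these genes in bone mesenchymal stem cells (MSCs) of old and young mice. They comprise 6 regulators (Pparg, Cebpa, Cebpb, Cebpd, Zfp423 and Klf15) and 4 genes of the mature fat cell (Fabp4, Adipoq, Plin1 and Lpl). Every peak that overlapped one of these genes or the 20 kb upstream of its start in the GENCODE vM21 annotation (GRCm38) was taken, which gave 80 of the 117282 peaks listed on the mouse build mm10. Zfp423 held 42 of them, Pparg 13, Plin1 5, Cebpb and Adipoq 4 each, Cebpa, Cebpd and Klf15 3 each, Fabp4 2 and Lpl 1.

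ATAC-seq, in which a transposase inserts sequencing adapters into accessible DNA, was performed on 2 samples of MSCs from mice aged 18 to 22 months (old) and on 2 samples from mice aged 3 to 5 months (young). All 4 samples were cultured at 2% O2, and no genetic change or drug is named for any of them. The study's methods, which are written for hypoxia- and normoxia-cultured cells of young C57BL/6N mice, describe cells grown out of hind limb bone and sorted as CD45-, Ter-119-, Sca-1+ and CD140a+. The comparison asks how age changes chromatin accessibility in these stem cells, and the labels do not say whether replicates came from separate animals or cultures, so the p-values measure the spread between these samples.

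MSCs of bone can become bone-forming osteoblasts or fat cells. When a precursor commits to fat, C/EBPβ and C/EBPδ, transcription factors encoded by Cebpb and Cebpd, are induced early and help to activate Pparg and Cebpa. PPARγ, a nuclear receptor that binds DNA together with RXR, and C/EBPα then maintain each other and switch on the genes of the fat cell. Zfp423 is a zinc finger factor that marks committed fat precursors, and Klf15 is a zinc finger factor that acts later in differentiation. Fabp4 carries fatty acids in the cytoplasm, Adipoq encodes the hormone adiponectin, Plin1 coats the lipid droplet of mature fat cells, and Lpl releases fatty acids from circulating triglycerides.

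The promoters differed in CpG content, measured as the number of CpG dinucleotides observed over the number that the C and G content predicts, and the sequences of 6 of them are shown because those with the lowest ratios lay outside every peak. The RefSeq table of mouse promoters (GRCm38.p6) held 10 promoters of 7 of the genes, each 300 bases long, and had no entry for Cebpd, Fabp4 and Lpl. In the sequences below, written 5′ to 3′ on the strand of the gene, capitals mark motif matches on either strand, and matches that adjoin or overlap appear as 1 run of capitals. The TATA box was searched as TATAAA, and the motif that NF-Y binds was searched as CCAAT. The letters GGGCGG were searched as the binding motif of Sp1 and its relatives, called the GC box here. The letters TTGCNNAA, with N for any base, were searched as the motif of C/EBP factors. No promoter of the 10 matched the other motifs searched, which were AP-1 (TGANTCA), EBF (TCCC and GGGA with 2 bases between them) and DR1, the element of PPAR and RXR (a pair of AGGNCA with 1 base between them).
Pparg, upstream start, + strand, chr6:115360894-115361193: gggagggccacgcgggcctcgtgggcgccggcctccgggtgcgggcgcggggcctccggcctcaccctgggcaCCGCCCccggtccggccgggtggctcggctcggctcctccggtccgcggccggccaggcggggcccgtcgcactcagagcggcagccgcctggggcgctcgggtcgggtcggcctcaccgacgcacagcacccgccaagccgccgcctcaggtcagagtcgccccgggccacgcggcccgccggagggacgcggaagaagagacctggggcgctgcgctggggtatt
Pparg, internal start, + strand, chr6:115421816-115422115: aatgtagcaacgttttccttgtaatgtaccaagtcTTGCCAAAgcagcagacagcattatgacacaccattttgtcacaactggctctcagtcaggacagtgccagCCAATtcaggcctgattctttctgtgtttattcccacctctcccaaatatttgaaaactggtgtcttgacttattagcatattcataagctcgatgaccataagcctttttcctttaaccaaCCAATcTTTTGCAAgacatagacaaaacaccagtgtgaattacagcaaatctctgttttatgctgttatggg
Cebpb, + strand, chr2:167688665-167688964: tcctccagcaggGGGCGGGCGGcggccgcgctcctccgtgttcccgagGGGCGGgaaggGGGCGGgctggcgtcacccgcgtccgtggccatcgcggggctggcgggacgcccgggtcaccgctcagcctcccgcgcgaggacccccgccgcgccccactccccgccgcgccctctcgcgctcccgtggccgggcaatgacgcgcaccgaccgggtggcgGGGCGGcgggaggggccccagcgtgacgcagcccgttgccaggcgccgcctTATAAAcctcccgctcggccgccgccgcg
Klf15, + strand, chr6:90462326-90462625: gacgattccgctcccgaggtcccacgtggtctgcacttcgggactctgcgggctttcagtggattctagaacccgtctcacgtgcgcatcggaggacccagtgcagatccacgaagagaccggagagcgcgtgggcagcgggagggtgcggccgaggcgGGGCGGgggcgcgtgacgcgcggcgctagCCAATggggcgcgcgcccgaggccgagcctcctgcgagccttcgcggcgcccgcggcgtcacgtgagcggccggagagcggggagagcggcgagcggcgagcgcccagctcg
Adipoq, + strand, chr16:23146286-23146585: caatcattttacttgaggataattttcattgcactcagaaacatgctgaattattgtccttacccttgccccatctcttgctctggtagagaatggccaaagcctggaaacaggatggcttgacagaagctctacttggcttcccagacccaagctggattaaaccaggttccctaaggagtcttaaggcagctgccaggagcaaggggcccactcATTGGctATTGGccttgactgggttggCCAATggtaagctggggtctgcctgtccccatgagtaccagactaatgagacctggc
Plin1, - strand, chr7:79732727-79733026: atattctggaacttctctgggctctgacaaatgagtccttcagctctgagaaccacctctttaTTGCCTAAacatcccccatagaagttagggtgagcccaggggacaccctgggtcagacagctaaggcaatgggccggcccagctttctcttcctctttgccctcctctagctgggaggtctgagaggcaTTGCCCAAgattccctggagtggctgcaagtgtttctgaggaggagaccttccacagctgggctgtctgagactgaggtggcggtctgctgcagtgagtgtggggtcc

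The CpG ratio was 1.18 in the Klf15 promoter, 1.03 in Cebpb, 0.910 at the upstream start of Pparg and 0.853 in Cebpa. The internal start of Pparg, which begins the PPARγ2 form that is enriched in fat cells, had a ratio of 0.170, with a CCAAT box that began 22 bases before the start and a C/EBP match that began 16 bases before it. Plin1 had a ratio of 0.0862 and 2 C/EBP matches, and Adipoq had a ratio of 0, with 3 CCAAT boxes within 34 bases of its start. The promoters of Adipoq and Plin1 were the ones of the 10 that lay in no peak. Of 32851 RefSeq promoters, 13.4% of those with a ratio under 0.1 lay in a peak, against 37.8% from 0.1 to under 0.6 and 93.5% at 0.6 or more. CCAAT was found in 37.4% of all promoters, GGGCGG in 35.7%, TATAAA in 13.6% and TTGCNNAA in 10.8%.

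The deposited values are counts scaled to 10000000 per library, without division by peak length. Library totals lay between 28259470 and 32559794 counts. The share of the total that lay in peaks was 43.8% and 50.3% in old and 57.5% and 62.9% in young samples. Mitochondrial peaks held 15.7% and 6.52% of the peak signal in old and 13.5% and 14.5% in young samples. The part of these shares in the differences was not tested. For comparisons of peaks, each value was divided by an RLE factor, the median over peaks of a sample's ratio to the geometric mean of the 4 samples, and is called the scaled value below. Old replicate 1 had a factor of 0.813 and old replicate 2 of 1.01, while the young samples had 1.07 and 1.15. A chi-square statistic per peak between replicates was 9.39 in the old pair and 1.94 in the young pair, so the old pair differed more. A read may be counted again in overlapping bins, which raises the statistic. It therefore does not show whether the young pair came from separate libraries. Of the marker lists, read as peaks within 1 kb of a transcript start, all 10 MSC markers and all 9 osteoblast markers had such a peak. Ptprc, which encodes the CD45 that was sorted against, had none, nor did the blood genes Cd3e, Itgam, Adgre1 and Cd79a, whereas Spi1, a blood cell transcription factor, had one. In bulk samples, a lower share of cells of a type and lower accessibility per cell cannot be told apart.

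All 6 regulators had a peak within 1 kb of a transcript start, as did 3 of the 4 fat cell genes, with a median level of 25 per kb over the 9 start peaks of regulators and 17.6 per kb over the 4 of fat cell genes. Of the 80 peaks, 13 lay within 1 kb of a protein-coding transcript start of the gene, 42 in introns, 5 over exons and 20 upstream, and 6 of the 80 lay nearest to the start of another gene. To compare genes, scaled values were divided by the width of the peak in kb, which is the level used in this and the next paragraph. The Cebpa start peak had the highest level, at 34.5 ± 2.37 per kb (SD over the 4 samples), and it was 12.1 kb wide. Cebpd followed with 31.2 ± 2.03 per kb over 11.5 kb, the upstream start of Pparg with 30.3 ± 1.89 and the upstream start of Zfp423 with 29.6 ± 1.70. Klf15 had 25 ± 0.954 per kb, and Cebpb had 20.6 ± 3.90 over 13.7 kb. The start peaks of Cebpa, Cebpb and Cebpd were the 3 member peaks of at least 10 kb, a width that 0.904% of all peaks reached.

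The start peaks of the fat cell genes had levels of 17.7 ± 2.78 per kb at Fabp4, 17.5 ± 4.05 at Lpl, and 18.7 ± 2.50 and 9.71 ± 2.29 at the 2 Plin1 peaks. The stronger Plin1 peak lay 788 bases from an internal transcript start and the weaker one covered an internal start, while the Plin1 promoter lay in no peak. Adipoq had no start peak, and its nearest upstream peak, at chr16:23144001-23144900, was 0.9 kb wide. Internal start peaks of the regulators were also weaker, with 18.1 ± 5.14 per kb at the internal start of Pparg and 18.3 ± 1.14 and 7.16 ± 1.78 at those of Zfp423. Neighbours in the order of levels overlapped over their 4 samples, except that the upstream start of Zfp423 stood above Klf15 and Lpl stood narrowly above the weaker Plin1 peak in every sample. Over all 16213 start peaks of protein-coding genes the median level was 27.1 per kb. The Cebpa peak stood at the 63.5th percentile of these, and the weakest Zfp423 peak at the 1.66th.

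**Figure D1:**
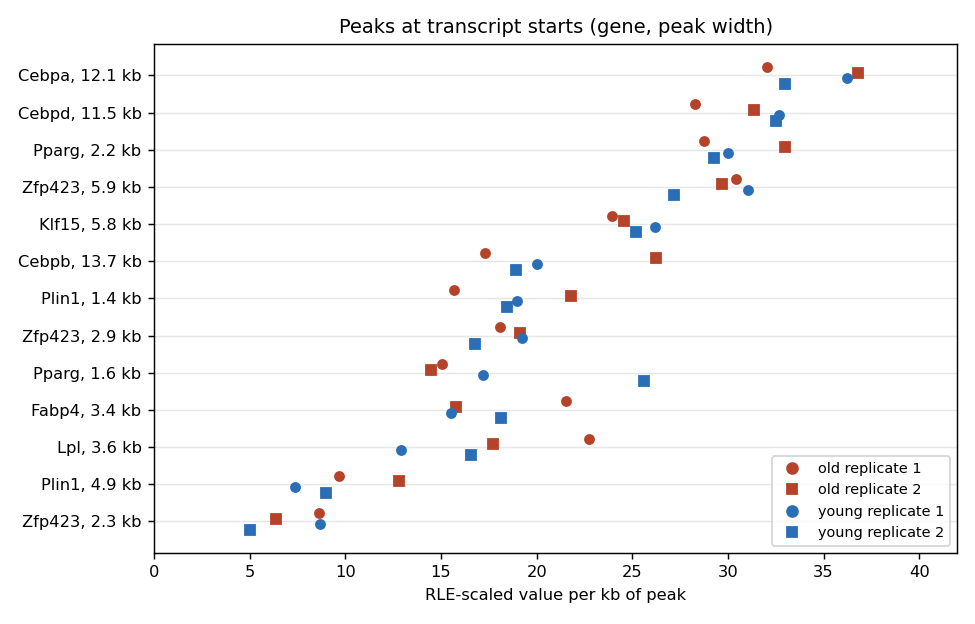
Scaled value per kb of peak (horizontal axis) in each of the 4 samples at the 13 peaks within 1 kb of a transcript start, ordered by mean level, with the width of each peak beside the gene. Cebpa, Cebpd and the upstream starts of Pparg and Zfp423 have means between 29.6 and 34.5, and the fat cell genes have means between 9.71 and 18.7.

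None of the 80 peaks passed the threshold of the age comparison. In limma's moderated test at an adjusted p under 0.01, 0 were lower and 0 were higher in old MSCs, where 0.0307% and 0.0256% of all peaks were called (0.0563% in either direction). At an unadjusted p under 0.05, 3 were lower (3.75%, against 8.87% of all peaks) and 4 were higher (5.0%, against 7.49%). At an adjusted p under 0.05, 0 were lower, where 0.771% of all peaks were, and a single peak in an intron of Zfp423 was higher, where 0.351% were. The median log2 fold change of old over young was 0.050 over the 80 peaks and 0.0011 over all peaks, and the changes of the members ran from -1.55 to 1.29. Zfp423 held 42 of the 80 peaks, 27 of them with a change above 0, so pooled values and counts weigh that gene most. Over the 38 peaks outside Zfp423 the median was -0.0017, with 19 below 0, and 49.9% of all peaks were below 0. The old and young scaled values did not overlap, with old lower, at 12 members (15%, against 24.2% of all peaks) and, with old higher, at 23 (28.7%, against 23.2%). Log2 fold changes of at least 0.5 in size were found at 11 members, or 13.8%, against 24.4% of all peaks.

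These counts depended on the scaling, and the median of the members also on which samples entered. In the values as deposited, the median log2 fold change of all peaks was -0.27 and that of the members -0.23, groups did not overlap at 26 members with old lower (against 43.5% of all peaks) and at 3 with old higher (against 7.56%), and calls over all peaks were 1333 lower and 52 higher, in place of 36 and 30. One member then passed, the Pparg intron peak described below, with an adjusted p of 0.00774. A fit without 1 sample leaves 1 library to stand for its age, with no spread between replicates of that age. Only log2 fold changes of such fits are therefore given, without calls or adjusted p. The median over the members was 0.12 without old replicate 1 and 0.049 without old replicate 2.

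**Figure D2:**
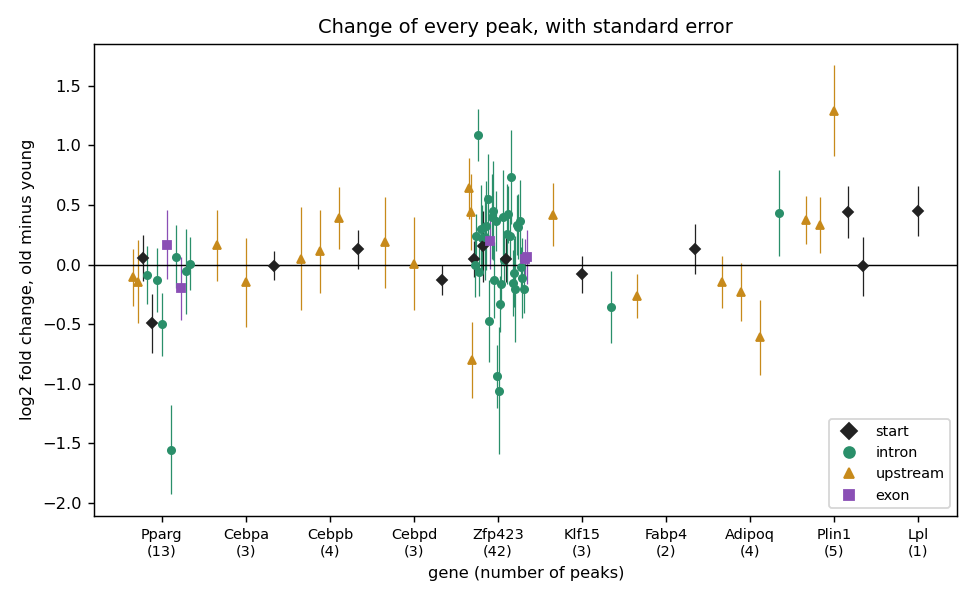
Log2 fold change of old over young (vertical axis) with its standard error for each of the 80 peaks, grouped by gene and drawn from upstream to downstream within a gene, with symbols for start, intron, upstream and exon peaks. Most start peaks lie near 0, and the points farthest from 0 are an intron peak of Pparg at -1.55, an upstream peak of Plin1 at 1.29 and an intron peak of Zfp423 at 1.09.

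Summed over all its peaks, no gene differed between old and young at an adjusted p under 0.01 (limma over 18072 genes, 0 called in each direction). At an adjusted p under 0.05, 0.0111% of all genes were called, all of them higher in old MSCs, and at an unadjusted p under 0.05, 4.76% were lower and 3.06% higher, or 7.82% in all. The Cebpa sums were 406 and 475 in the old samples and 457 and 426 in the young ones, a log2 fold change of -0.0067 ± 0.126 (SE). The Pparg sums were 278 and 284 in old and 297 and 320 in young MSCs, with a log2 fold change of -0.13 ± 0.126. Both old Pparg sums lay below both young ones, while those of Cebpa overlapped. Cebpd was also below in both old samples, with 339 and 374 against 387 and 387, a log2 fold change of -0.12 ± 0.121. Zfp423 had sums of 1396 and 1421 in old and 1401 and 1244 in young samples (0.093 ± 0.104), and Klf15 had 174 and 198 against 192 and 187 (-0.033 ± 0.143). The groups overlapped at both genes.

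Plin1 and Lpl had higher sums in both old samples, which included the start peaks. The Plin1 sums were 173 and 219 in old and 147 and 154 in young MSCs, with a log2 fold change of 0.37 ± 0.160, an unadjusted p of 0.0474 and an adjusted p of 0.635 in limma. Lpl, whose sum is its start peak alone, had 81.8 and 63.7 against 46.4 and 59.7, a log2 fold change of 0.45 ± 0.209 and an adjusted p of 0.642. Neither passed, and sums without overlap were found at 15.6% of all genes with old higher and at 25.4% with old lower. Fabp4 had 137 and 113 in old against 128 and 134 in young samples (-0.076 ± 0.162), and Adipoq had 97.2 and 149 against 147 and 129 (-0.19 ± 0.211). Most of the Adipoq sum lay in upstream peaks nearest to the start of Rfc4. The one at that start had 54.6 and 84.2 in old and 84.9 and 66.8 in young samples. The next had 28.4 and 48.2 against 47.1 and 40.4. Cebpb had 275 and 408 against 318 and 288 (0.14 ± 0.183). At these 3 genes the groups overlapped. With 1 sample left out, the log2 fold change of the Cebpb sum ran from -0.14 to 0.43. That of the Plin1 sum then ran from 0.2 to 0.54, and that of the Adipoq sum from -0.50 to 0.11.

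At Pparg (chr6:115360951-115490399, + strand), the upstream start, which begins the PPARγ1 form, showed little difference in scaled value, and the lowest values of old MSCs lay farther along the gene. The peak over the upstream start, chr6:115360601-115362800, had scaled values of 63.3 and 72.6 in old and 66.0 and 64.4 in young samples, a log2 fold change of 0.055 ± 0.190. At the internal start, chr6:115420701-115422300, they were 24.1 and 23.2 in old and 27.5 and 41.0 in young samples, a log2 fold change of -0.49 ± 0.248 with an adjusted p of 0.335. Old values were below both young ones there, and young replicate 2 stood well above the other 3 samples.

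The largest negative difference of all 80 peaks was in an intron of Pparg at chr6:115452401-115453100, where the scaled values were 3.01 and 2.13 in old and 9.29 and 9.50 in young MSCs, from counts of 7 and 7 against 28 and 32. The log2 fold change on the log2(value + 1) scale was -1.55 ± 0.374, with an adjusted p of 0.0502 in limma. The groups were far apart, but the counts in old samples were few. The intron peak that adjoins it, chr6:115453101-115454200, had 17.2 and 17.7 in old and 17.3 and 16.0 in young samples, a log2 fold change of 0.066 ± 0.262. These peaks adjoin without a gap, and the study's methods describe peak calling in a differential mode between conditions. Whether the border between them, or the listing of the first, came from the age difference was not tested. Over 8 other settings that used all 4 samples, the adjusted p of the first peak in limma ran from 0.00774 to 0.0960. With 1 sample left out, the log2 fold change of this peak ran from -1.73 to -1.37. Its central 300 bases are shown because they lie in the member peak with the largest negative difference, with a C/EBP match in capitals.
Pparg intron peak, + strand, chr6:115452601-115452900: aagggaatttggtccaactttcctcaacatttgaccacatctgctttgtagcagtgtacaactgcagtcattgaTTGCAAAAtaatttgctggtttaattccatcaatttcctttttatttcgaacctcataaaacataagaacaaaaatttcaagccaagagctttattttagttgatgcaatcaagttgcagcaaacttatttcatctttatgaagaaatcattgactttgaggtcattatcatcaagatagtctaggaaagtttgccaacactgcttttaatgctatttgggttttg

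Of the other Pparg peaks, the intron peak at chr6:115432101-115433100 had scaled values of 14.6 and 12.5 in old against 19.6 and 19.6 in young samples (a log2 fold change of -0.50 ± 0.267, adjusted p of 0.363). The strongest intron peak per kb, chr6:115389801-115391100, had 26.2 and 32.9 against 26.5 and 36.8, with overlapping groups and a log2 fold change of -0.085 ± 0.244. Of the 13 Pparg peaks, 9 had a log2 fold change below 0, with a median of -0.11, and 49.9% of all peaks were below 0. The peaks of Pparg held 12 matches to TTGCNNAA, of which 3 lay in the peak of the internal start and 2 in the intron peak with few old counts.

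**Figure D3:**
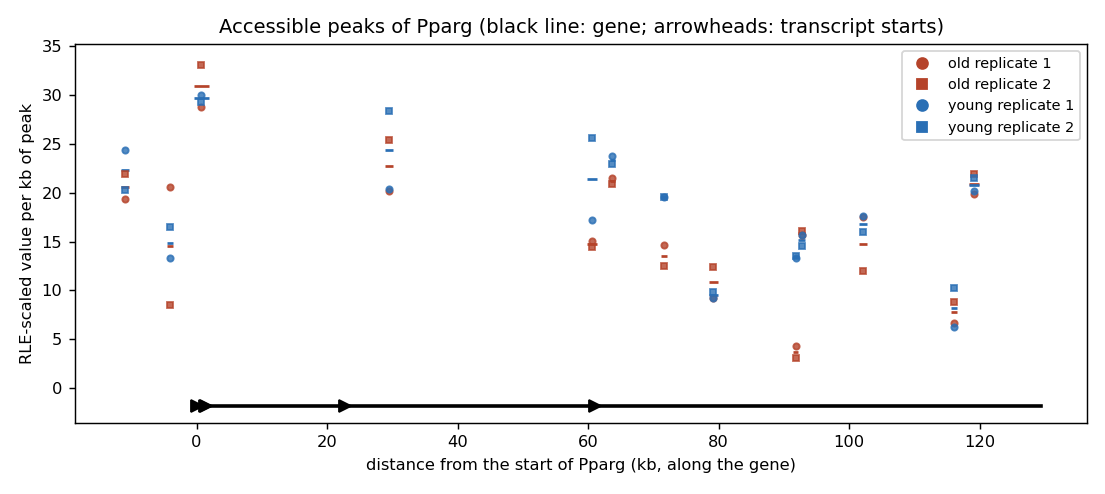
Scaled value per kb (vertical axis) of the 13 Pparg peaks against the distance from the upstream start in kb, with points for the 4 samples, short bars for the group means over the width of the peak, and arrowheads at transcript starts. Old and young points overlap at the upstream start. They separate at the internal start at 61.1 kb, where young replicate 2 stands apart, and at intron peaks at 63.7, 71.65 and 91.8 kb.

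Zfp423 (chr8:87661810-87959595, - strand) carried the most peaks, and they differed among themselves in direction. Its 42 peaks covered 84.0 kb. Of these peaks, 27 had a log2 fold change above 0 and 15 below, where 49.9% of all peaks were below 0. The SD of these changes was 0.42, against 0.48 over all peaks. The strongest per kb of the member peaks away from a start was in an intron of Zfp423, chr8:87790301-87791900, with scaled values of 85.6 and 93.0 in old against 78.3 and 73.0 in young MSCs and a log2 fold change of 0.24 ± 0.179. All 3 start peaks overlapped between the groups, with scaled values of 179 and 175 against 183 and 160 at the upstream start and a log2 fold change of 0.049 ± 0.149. The other start peaks had log2 fold changes of 0.051 ± 0.201 and 0.15 ± 0.300.

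The intron peak at chr8:87931501-87935600, 26.0 kb into the gene, had the lowest p of all members. Its scaled values were 53.4 and 54.3 in old and 25.9 and 23.7 in young MSCs, from counts of 124 and 178 against 78 and 80. Both old values were about level, as were both young ones. The log2 fold change was 1.09 ± 0.217, with an adjusted p of 0.0248 in limma, which misses 0.01. Over 9 other settings that used all 4 samples, the log2 fold change ran from 0.81 to 1.12 and the adjusted p from 0.00450, with replicate numbers as a block, to 0.115. With 1 sample left out, the log2 fold change of this peak ran from 1.03 to 1.15. Its central 300 bases, shown because no other member peak had a lower p, held none of the 7 motifs, so they are without capitals.
Zfp423 intron peak, - strand, chr8:87933401-87933700: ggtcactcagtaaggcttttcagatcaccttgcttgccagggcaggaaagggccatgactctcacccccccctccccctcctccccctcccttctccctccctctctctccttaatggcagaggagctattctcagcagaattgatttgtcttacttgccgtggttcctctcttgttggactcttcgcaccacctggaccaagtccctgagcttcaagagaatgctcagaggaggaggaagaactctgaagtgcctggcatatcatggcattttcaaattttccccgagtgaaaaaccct

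The neighbouring Zfp423 intron peaks had smaller differences. At chr8:87937701-87941000, scaled values were 97.2 and 125 in old and 96.5 and 89.6 in young MSCs, with a log2 fold change of 0.24 ± 0.179. At chr8:87926001-87928300, they were 55.1 and 72.9 against 70.0 and 62.3, a log2 fold change of -0.059 ± 0.201. The groups overlapped at the second of these peaks and lay narrowly apart at the first.

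Lower values of old MSCs were found at adjoining Zfp423 peaks between 122.5 and 125.1 kb from its start. The peak at chr8:87836501-87837600 had 12.9 and 11 in old and 24.5 and 22.9 in young samples, a log2 fold change of -0.94 ± 0.265 with an adjusted p of 0.0839. Next to it, a peak of 200 bases from chr8:87836301 had counts of 0 and 1 in old and 6 and 3 in young samples, too few for a fold change to be read, and the 3.6 kb peak that adjoins that one had a log2 fold change of -0.33 ± 0.235. At the first of these both old samples lay below both young ones, and at the last the groups overlapped. As at Pparg, whether the borders between these adjoining peaks came from the age difference was not tested. Upstream of the gene, chr8:87964501-87965600 had 6.02 and 8.84 against 14.6 and 12.5 (log2 fold change of -0.80 ± 0.316, adjusted p of 0.212), and chr8:87974001-87976100 had 23.2 and 29.0 against 14.9 and 17.8 (0.64 ± 0.257, adjusted p of 0.222). Both upstream peaks had groups without overlap, in opposite directions. With 1 sample left out, the log2 fold change of the peak at chr8:87836501-87837600 ran from -1.04 to -0.83. An intron peak of 500 bases from chr8:87787401 had 5.16 and 7.01 against 2.65 and 3.86, a log2 fold change of 0.74 ± 0.394.

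**Figure D4:**
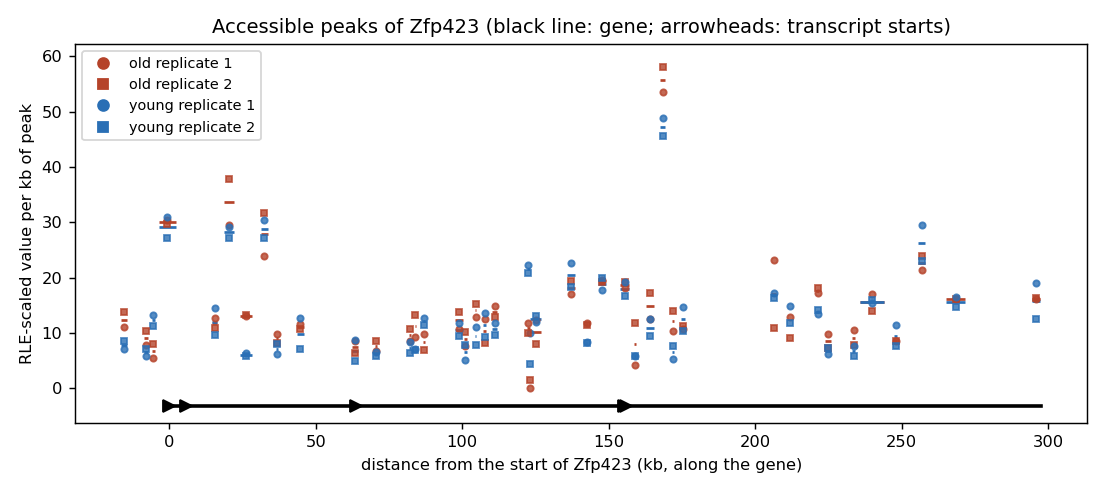
Scaled value per kb (vertical axis) of the 42 Zfp423 peaks against the distance from the upstream start in kb, with points for the 4 samples, short bars for the group means and arrowheads at transcript starts. Old points lie above young ones at the intron peak at 26.0 kb and below them at 122.5 kb, and the groups overlap at the 3 start peaks.

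The C/EBP genes had few peaks besides the wide start peak, which held between 87.6% and 96.5% of their summed value. At Cebpa the start peak had scaled values of 388 and 446 in old and 439 and 399 in young MSCs, with a log2 fold change of -0.0091 ± 0.124. At Cebpd they were 325 and 360 against 376 and 374, a log2 fold change of -0.13 ± 0.124. Old values lay below both young ones at Cebpd, where the log2 fold change was about as large as its SE, and the Cebpa groups overlapped. At Cebpb the start peak had 237 and 359 against 274 and 259, a log2 fold change of 0.13 ± 0.163, and old replicates 1 and 2 lay on either side of both young samples. This peak had a log2 fold change of 0.43 without old replicate 1 and of -0.17 without old replicate 2.

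The upstream peaks of the C/EBP genes were small. The strongest per kb at Cebpb, chr2:167679801-167681100, had 12.9 and 25.3 in old and 24.5 and 11.3 in young samples, so that the values within each age lay farther apart than the group means, with a log2 fold change of 0.11 ± 0.348. At Cebpa, chr7:35098501-35099400 had 13.8 and 18.3 against 10.9 and 18.1 (log2 fold change of 0.16 ± 0.300). At Cebpd, chr16:15877001-15877600 had 4.30 and 7.62 against 7.30 and 4.45 (0.0078 ± 0.388). The groups overlapped at all 3.

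The exact DR1 element AGGTCAAAGGTCA occurred at 2 places in the Cebpb peaks, at chr2:167692070-167692082 on the + strand in the start peak and at chr2:167679801-167679813 on the - strand at the edge of the upstream peak. In the Cebpd start peak, AGGTCAGAGGTCA lay at chr16:15893995-15894007. DR1 matched in 9 of the 80 peaks (11.2%, against 3.25% of all peaks, or 0.498 against 0.200 matches per 10 kb of peak), and members were wider than other peaks, with medians of 1400 and 1200 bases. TTGCNNAA matched in 53.8% of members and 48.3% of all peaks (5.09 and 4.81 matches per 10 kb). GGGCGG matched in 46.2% and 27.4% (5.53 and 4.81 per 10 kb) and TGANTCA in 46.2% and 52.1% (3.87 and 4.98 per 10 kb). The EBF motif matched in 7.5% and 5.43% (0.498 and 0.338 per 10 kb). The median GC content was 50.4% in members and 46.1% in all peaks. The Lpl start peak held the EBF match TCCCTAGGGA at chr8:68880320-68880329, 167 bases before the start. These matches are letters in the reference genome and do not show that a factor was bound.

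At Klf15, the start peak had scaled values of 139 and 142 in old and 152 and 146 in young MSCs, with a log2 fold change of -0.082 ± 0.153. Old values were lower in both samples by a small margin. The upstream peak at chr6:90450101-90451700 had 24.1 and 37.2 against 19.2 and 25.5 (0.42 ± 0.263, adjusted p of 0.453), with overlapping groups, and the intron peak had a log2 fold change of -0.36 ± 0.299.

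The start peak of Lpl and the wider one of Plin1 had higher values in both old samples, without passing the threshold. The Lpl start peak had scaled values of 81.8 and 63.7 in old and 46.4 and 59.7 in young MSCs, with a log2 fold change of 0.45 ± 0.208 with an unadjusted p of 0.0445 and an adjusted p of 0.292. Old replicate 2 and young replicate 2 were close, though the groups did not overlap. At Plin1, the wider internal start peak, chr7:79726901-79731800, had 47.3 and 62.8 against 36.2 and 43.9 (0.44 ± 0.219, adjusted p of 0.325). The other start peak, chr7:79721101-79722500, had 21.9 and 30.5 against 26.5 and 25.8 (-0.016 ± 0.246), with overlapping groups.

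The largest positive difference of the 80 peaks lay upstream of Plin1 at chr7:79734301-79735200. Its scaled values were 7.75 and 14.6 in old and 2.99 and 4.75 in young MSCs, from counts of 18 and 48 against 9 and 16. The log2 fold change was 1.29 ± 0.381, with an adjusted p of 0.0960 in limma. Old replicate 2 was far above old replicate 1, and both were above the young samples. With 1 sample left out, the log2 fold change of this peak ran from 0.87 to 1.71. The strongest peak per kb upstream of Plin1, chr7:79746901-79748600, had 62.0 and 73.5 against 48.4 and 55.5 (0.37 ± 0.199, adjusted p of 0.364). It lay 3738 bases from a start of Wdr93 and 13998 bases from the nearest start of Plin1. Of the 5 Plin1 peaks, 4 had a log2 fold change above 0, where 49.9% of all peaks were below 0. Another upstream peak of Plin1 lay at the starts of Pex11a and Wdr93.

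At Fabp4 and Adipoq, 3 of the 6 peaks did not overlap between the groups and none passed. Of all peaks, 24.2% were without overlap with old lower and 23.2% with old higher. The Fabp4 start peak had scaled values of 73.2 and 53.7 in old and 52.7 and 61.7 in young MSCs, with a log2 fold change of 0.13 ± 0.209. Its upstream peak, chr3:10211701-10217000, had 63.7 and 59.2 against 75.3 and 72.4, a log2 fold change of -0.26 ± 0.188. Old values were below both young ones upstream, whereas the start peak overlapped. At Adipoq, the strongest peak per kb lay at chr16:23127301-23129500, at the start of the neighbouring gene Rfc4, and had 54.6 and 84.2 against 84.9 and 66.8 (-0.15 ± 0.217). The peak nearest to the Adipoq start had 7.32 and 9.15 against 10.9 and 15.4 (-0.61 ± 0.313, adjusted p of 0.345), and the intron peak at chr16:23151301-23151900 had 6.88 and 7.32 against 3.98 and 6.23 (0.43 ± 0.363, adjusted p of 0.592). Both had groups without overlap, in opposite directions.

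Among 55 other genes of fat cell formation, chosen for their known roles, 52 had a start peak, and Cd36, Lep and Cfd had none. Of their 407 peaks, limma called 0 lower and 0 higher at an adjusted p under 0.01, and at an unadjusted p under 0.05 there were 19 lower (4.67%, against 8.87% of all peaks) and 41 higher (10.1%, against 7.49%). The median log2 fold change of these peaks was 0.11. By group, at an unadjusted p under 0.05, peaks of activating regulators were lower at 9 and higher at 23 of 177, those of inhibitors at 2 and 8 of 70, and those of lipid synthesis and uptake at 4 and 1 of 62. Peaks of lipid droplet and lipolysis genes were lower at 0 and higher at 7 of 51, those of secreted products at 0 and 1 of 15, and those of the insulin and adiponectin response at 4 and 1 of 32.

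At the start peaks of these genes, the lowest p with old lower belonged to Klf2, an inhibitor of adipogenesis, with scaled values of 665 and 735 in old against 964 and 919 in young MSCs (log2 fold change of -0.43 ± 0.103, adjusted p of 0.0501). Ebf2, a regulator of fat precursors, had 176 and 141 against 221 and 225 (-0.50 ± 0.153, adjusted p of 0.107). Acaca, which makes malonyl-CoA for fatty acid synthesis, had 31.8 and 29.3 against 45.4 and 44.8 (-0.55 ± 0.216, adjusted p of 0.211). Both old samples lay below both young ones at these 3 genes, which were picked by their low p in these data. Of all peaks, 24.2% were without overlap with old lower.

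With old higher, the lowest p belonged to 3 genes of the lipid droplet. Plin2, a perilipin found on droplets of many cell types, had scaled values of 15.5 and 16.8 in old against 8.96 and 6.83 in young MSCs (0.96 ± 0.299, adjusted p of 0.115). Plin4, another perilipin, had 172 and 188 against 133 and 128 (0.46 ± 0.153, adjusted p of 0.134), and Cidec, which enlarges lipid droplets, had 8.61 and 14.3 against 5.64 and 5.34 (0.90 ± 0.344, adjusted p of 0.195). The groups did not overlap at any of the 3, which were picked by their low p in these data, and none passed 0.01. Of all peaks, 23.2% were without overlap with old higher. The 6 mature fat cell markers had summed start peak levels of 33.8 and 43.1 per kb in old against 33.1 and 33.3 in young samples, with Adipoq, Lep and Cfd at no start peak. The 9 osteoblast markers had 156 and 190 per kb against 144 and 143, and the 10 MSC markers 190 and 195 against 183 and 179. Of the blood genes named above, Spi1 had a start peak level of 15.4 and 12.2 per kb against 19.9 and 12.7, with overlapping groups and a log2 fold change of -0.20 ± 0.320, and the others had no start peak. The 4 endothelial markers, of which Pecam1 and Kdr had a start peak, had 32.9 and 35.1 per kb against 28.6 and 32.8. The part of these other cell types in the differences was not tested.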

How the data were processed

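ATAC-seq values of 2 old and 2 young samples of mouse bone MSCs were analysed. The submitters' notes name Bowtie2, Picard and mm10, and the study's methods, written for its hypoxia- and normoxia-cultured cells, describe mapping, removal of duplicates and peak calling with chromstaR. That peak calling compared the oxygen conditions in a differential mode. How the old and young samples were processed is not given separately in the sources used here. The authors deposited 1 value per sample and peak under the name RPKM, with decimal commas. It was treated as a score, since 100% of the deposited values in each sample were whole multiples of 1 step, the same for narrow and wide peaks, and all peak widths were multiples of 100 bases. A count of 3 was worth between 0.921 and 1.06. Overlapping bins may count a read again, so multiples are called counts.

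Values were divided by RLE factors, as log2(value + 1), with pseudocount 1. Peaks, and sums per protein-coding gene with its 20 kb upstream, were fitted with limma 3.58.1 in R 4.3.3 (trend and robust moderation), with Benjamini-Hochberg adjustment over all 117282 peaks or 18072 genes and a threshold of 0.01. An exact permutation test of 2 against 2 samples cannot go below 0.33. Python 3.11.15, numpy 2.4.6, pandas 2.3.3 and matplotlib 3.10.9 were used for summaries and figures. Motifs and promoters came from the RefSeq tables and genome of GRCm38.p6, and 117279 peaks ended within its nuclear chromosomes, the other 3 being mitochondrial.

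The genes, gene lists and tests were chosen with earlier results of these data known. The text names every start peak, the strongest other peak of each gene per kb, the 8 peaks of lowest p, the 3 of largest change in each direction without overlap, and, of the 55 other genes, up to 3 start peaks per direction by lowest p; a few neighbouring or weaker peaks were added after their values were seen. The summed level of the blood marker list is not reported here. Alternatives were the deposited scaling, quantile normalization, pseudocounts of 0.1 and 5, leaving out the weakest peaks, plain moderation, a replicate block, an adjusted p under 0.05 and leaving out each sample. After the data were examined, limma-voom on recovered counts and a fit corrected for GC content and width were added.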

Additional observations from a re-analysis of the deposited data

How the results depend on the processing

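Depth limits the small peaks, since counts of 0 to 178 lay behind the peaks with the largest differences. Of the 80 peaks, 0 were called lower under every setting that used all 4 samples but the deposited scaling (1). Under these settings 0 were called higher but for the replicate block (1) and an adjusted p under 0.05 (1). At an unadjusted p under 0.05, the deposited scaling gave 9 lower and 2 higher, and leaving out 1 sample gave 3 to 8 lower and 2 to 11 higher. The median of the members was -0.23 in the deposited scaling. Over all peaks, 36 were lower and 30 higher, which became 1333 and 52 (deposited scaling), 11 and 13 (pseudocount 0.1), 7 and 8 (without the weakest peaks), 95 and 49 (limma-voom), 105 and 73 (GC and width correction), 904 and 412 (adjusted p under 0.05), and 0 and 0 (plain moderation in limma, with 9419 and 8718 at an unadjusted p under 0.05). Leaving out 1 sample gave 0 to 6388 lower and 8 to 3925 higher. Of the 18072 gene sums, 0 lower and 0 higher became 32 and 2 (deposited scaling), 2 higher (adjusted p under 0.05), and 1 to 1980 lower and 4 to 2560 higher without 1 sample, with 0 to 1 of the member genes lower and 0 to 2 higher. Except where a looser threshold entered, the cause was not tested.

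With the replicate number as a block, calls were 907 lower and 362 higher over all peaks, 36 and 31 over gene sums, and 1 among the members, the Zfp423 intron peak. The deviations of samples with the same number correlated at r = -0.0993 across peaks, so with only 2 pairs the numbers do not show a pairing.

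Small differences changed sign, and none of the changed values passed the threshold. In the deposited scaling these were the upstream starts of Pparg (-0.23) and Zfp423 (-0.24), the other Zfp423 starts (-0.23 and -0.12), the Zfp423 peak from 87790301 (-0.049), the start peaks of Cebpb (-0.16) and Fabp4 (-0.15), the strongest upstream peaks of Cebpa (-0.11), Cebpb (-0.16) and Cebpd (-0.23), and the sums of Cebpb (-0.14) and Zfp423 (-0.20). Quantile normalization turned the Cebpa start (0.036) and sum (0.011), limma-voom the Cebpa start (0.0034) and the Plin1 peak from 79721101 (0.0086), and the GC and width correction the Pparg intron peak from 115389801 (0.17), the Cebpb upstream peak (-0.020) and the Zfp423 starts from 87802701 (-0.023) and 87957401 (-0.0069). Leaving out 1 sample changed the sign of 18 differences, over ranges given in brackets: the Pparg peak from 115360601 (-0.043 to 0.15), the Pparg peak from 115389801 (-0.31 to 0.14), the Cebpa peak from 35098501 (-0.18 to 0.50), the Cebpa peak from 35117501 (-0.11 to 0.091), the Cebpb peak from 167679801 (-0.42 to 0.64), the Cebpb peak from 167685001 (-0.17 to 0.43), the Cebpd peak from 15877001 (-0.34 to 0.36), the Zfp423 peak from 87802701 (-0.045 to 0.15), the Zfp423 peak from 87895101 (-0.21 to 0.52), the Zfp423 peak from 87957401 (-0.047 to 0.14), the Fabp4 peak from 10206301 (-0.087 to 0.35), the Adipoq peak from 23127301 (-0.46 to 0.16), the Plin1 peak from 79721101 (-0.24 to 0.21), the Cebpa sum (-0.12 to 0.11), the Cebpb sum (-0.14 to 0.43), the Klf15 sum (-0.13 to 0.059), the Fabp4 sum (-0.21 to 0.062) and the Adipoq sum (-0.50 to 0.11).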
